A study of Mus musculus with 1 sample.

Results

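Txnip and 8 genes tied to glucocorticoid signalling (Tsc22d3, Fkbp5, Per1, Sgk1, Ddit4, Klf9, Nr3c1 and Zbtb16) were described in alveolar macrophages (AMs), the resident macrophages of the lung air spaces. The 9 genes were selected on their names and on values already measured in these cells, namely detection, level, joint variation beyond sequencing depth and relation to the mitochondrial share, so all of these are given as descriptions without a test. Of the 9 genes, 8 were among the 11918 genes with values and Zbtb16 was not. The cells were wild-type (WT), from an age range given as 8 to 12 weeks. They were homozygous for a loxP-flanked Hdac3 allele (Hdac3fl/fl) and without Cre, on an FVB/NJ background crossed to C57BL/6 for 10 generations. CD45+CD11c+SiglecF+ lung cells were sorted, 5000 were loaded, and 1 library was made with a droplet kit that reads the 3′ end of transcripts. The sort means that any AM with low surface CD11c or SiglecF was not sampled. The paper's figure legend gives 1 adult mouse as the source of the WT cells. With 1 library there was no replicate, so nothing could be tested between mice or conditions.

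Glucocorticoids act through the glucocorticoid receptor, a nuclear receptor encoded by Nr3c1 that is held by chaperones in the cytoplasm until hormone binds, then enters the nucleus and binds palindromic DNA elements. Among its well known induced targets are Tsc22d3, which encodes the anti-inflammatory protein GILZ, Fkbp5, a co-chaperone that dampens the receptor, Sgk1, a kinase, the clock gene Per1, the zinc finger factors Klf9 and Zbtb16, and Ddit4, an inhibitor of mTORC1. Txnip encodes an arrestin-like protein that binds thioredoxin and limits glucose uptake, and its transcription also follows glucose through an E-box-binding factor. In macrophages glucocorticoids are known for restraining inflammatory genes.

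The library held 2055 cells and 7222978 unique molecular identifiers (UMIs, counts of captured transcript molecules), with 1143 to 8603 UMIs per cell and a median of 3278. All 15 listed genes of 16 AM markers had UMIs, and each of the 2055 cells carried 2 or more UMIs of that list. Of the markers of other cell types, none of T and NK cells, of eosinophils and mast cells or of erythroid cells was listed. The study's methods describe removal of Hbb and of genes found in fewer than 3 cells, so an unlisted gene is not shown to be unexpressed. Epithelial markers had 2560 UMIs, B and plasma cell markers 1038 (1006 of them Jchain, with 3 cells at 2 or more UMIs of the list), other macrophage and monocyte markers 989, neutrophil markers 354 (S100a8 in 10.1% of cells), dendritic cell markers 36 and endothelial and stromal markers 13. The share of UMIs on the 13 mitochondrial genes had a median of 3.21% and reached 21.6%, and 384 cells (18.7%) lay above the 5% limit that the study's methods name. Hdac3 itself had 119 UMIs in 5.60% of cells.

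Promoter sequences are shown because the receptor is known to bind palindromic elements and because Txnip, which varied with Tsc22d3 and less with Sgk1, can be set beside Mt1, a metallothionein gene that was low where Txnip and Tsc22d3 were high. RefSeq promoters (GRCm38.p6, 250 bases before to 50 after each start site) were found for 7 of the 9 members. Each was searched on both strands for the receptor palindrome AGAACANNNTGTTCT, a relaxed form GNACANNNTGTNC, a single arm AGAACA, which the full palindrome also contains, and the E-box CACGTG. Over all 32851 promoters, the full palindrome was in 3 (0.00913%), the relaxed form in 156 (0.475%), the single arm in 6233 (19%) and the E-box in 2349 (7.15%). The 250 bases before the start site are printed 5′ to 3′ with the palindrome in capitals, the full form in Sgk1 and the relaxed form in Txnip and Mt1.
Sgk1, chr10:21993640-21993889 (plus strand): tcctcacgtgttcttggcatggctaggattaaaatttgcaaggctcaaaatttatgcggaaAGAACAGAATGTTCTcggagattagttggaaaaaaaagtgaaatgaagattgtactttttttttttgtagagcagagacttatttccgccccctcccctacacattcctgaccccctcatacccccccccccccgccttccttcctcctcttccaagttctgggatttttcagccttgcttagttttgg
Txnip, chr3:96557707-96557956 (plus strand): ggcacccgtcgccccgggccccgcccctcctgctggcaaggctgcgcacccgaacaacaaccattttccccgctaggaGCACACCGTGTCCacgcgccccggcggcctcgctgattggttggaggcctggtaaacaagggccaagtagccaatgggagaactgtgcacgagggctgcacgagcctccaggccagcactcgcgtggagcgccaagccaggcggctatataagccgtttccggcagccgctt
Mt1, chr8:94178839-94179088 (plus strand): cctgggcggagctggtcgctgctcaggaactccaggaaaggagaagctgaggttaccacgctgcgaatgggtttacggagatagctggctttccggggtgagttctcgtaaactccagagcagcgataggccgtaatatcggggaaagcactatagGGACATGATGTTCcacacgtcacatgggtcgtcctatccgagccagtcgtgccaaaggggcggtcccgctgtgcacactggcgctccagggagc

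In Sgk1, one of 6 annotated promoters held the full palindrome, beginning 189 bases before the start site, and an E-box 246 bases before it. The relaxed palindrome began 172 bases before the start of Txnip and 94 bases before that of Mt1. For the members without a palindrome, 30-base windows are printed with a single arm in capitals for Tsc22d3 and an E-box in capitals for Per1 and Fkbp5.
Tsc22d3, chrX:140600690-140600719 (minus strand): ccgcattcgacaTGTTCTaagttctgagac
Per1, chr11:69098771-69098800 (plus strand): agcacccaagtcCACGTGcagggatgtgtg
Fkbp5, chr17:28486301-28486330 (minus strand): gcaagggccagaCACGTGggcagcggtgaa

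The Tsc22d3 arm lay 185 bases before the start of one of 3 annotated promoters, the Per1 E-box 166 bases before the start of one of 2, and the Fkbp5 E-box 169 bases before its start. The promoters of Klf9 and Ddit4 held none of these letters, nor did the promoter of Mt2. The Txnip promoter held the relaxed palindrome and no exact E-box CACGTG. Only these letters were searched, so E-box forms that differ by a base, such as CACGAG in the printed Txnip sequence, were not counted. The absence of CACGTG therefore does not show that a glucose-responsive site is missing. A match is a string of letters and not a measured binding site, the window is short, and reads from the 3′ end do not show which start site was used.

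Sgk1 was by far the most abundant member. It had 5347 UMIs in 82.1% of cells, which was 7.40 UMIs per 10000 UMIs of the library (exact Poisson 95% interval 7.21 to 7.60), and it reached 19 UMIs in a cell. Tsc22d3 followed with 1551 UMIs in 45.7% of cells, or 2.15 per 10000 (2.04 to 2.26). Intervals here and below cover counting error only, not differences between mice or variation between cells beyond counting. For genes that vary beyond counting, such as Txnip, the intervals on the level are too narrow.

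Txnip stood at 979 UMIs, or 1.36 per 10000 (1.27 to 1.44), and Fkbp5 at 899 UMIs, or 1.24 per 10000 (1.16 to 1.33), so the intervals of these neighbours overlapped. Txnip was nevertheless found in fewer cells than Fkbp5, 29.1% (exact binomial 95% interval 27.2 to 31.2) against 33.7% (31.6 to 35.8). Its molecules were thus packed into fewer cells, with 1.63 UMIs per positive cell for Txnip and 1.30 for Fkbp5.

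Nr3c1, the receptor gene, gave 0.989 UMIs per 10000 (0.917 to 1.06) and was seen in 27.7% of cells. Klf9, a Krüppel-like repressor, gave 0.563 (0.510 to 0.621) in 16.8% of cells, and Per1 gave 0.396 (0.351 to 0.445) in 12.9%. From Sgk1 down to Per1, Txnip and Fkbp5 were the only neighbours whose intervals on the level overlapped. A 3′ tag counts molecules without a length effect, but capture differs between genes, so this is an order of counted molecules.

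Ddit4 was close to absent, with 2 UMIs in 2 cells (0.0973%, interval 0.0118 to 0.351). It was outside every comparison below. As a measure of transcripts from other cells, the lung epithelial genes Sftpc and Scgb1a1 had a UMI in 6.86% and 5.50% of these cells, and the plasma cell gene Jchain in 3.21%. Ddit4 was found in fewer cells than these genes, and the other listed members in more.

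**Figure D1:**
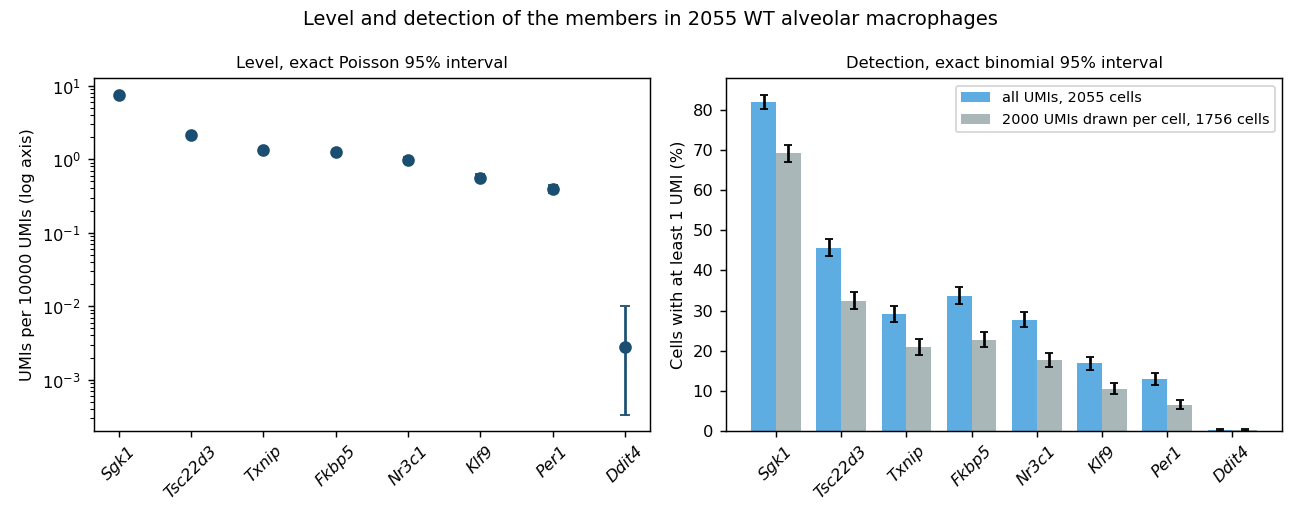
Left, UMIs per 10000 UMIs for the 8 listed members on a log axis, with exact Poisson 95% intervals; right, percent of cells with at least 1 UMI, for all UMIs and after drawing 2000 UMIs per cell, with exact binomial 95% intervals. Sgk1 stands highest at 7.40 per 10000, Ddit4 lowest, and with all UMIs Fkbp5 was found in more cells than Txnip at a similar level.

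Detection depended on depth. After thinning to 2000 UMIs per cell, which kept 1756 cells and left out 299 shallower ones, Txnip was detected in 20.8% of cells (19.0 to 22.8) and Fkbp5 in 22.7% (20.8 to 24.8), so that these shares no longer separated. Thinned shares were 32.5% for Tsc22d3 and 69.3% for Sgk1. When cells were divided into 5 equal groups by total UMIs, the share with Txnip climbed from 18.5% in the shallowest to 40.9% in the deepest, while the Txnip level went the other way, 1.66, 1.73, 1.36, 1.25 and 1.17 per 10000. Fkbp5 showed a like slope in level, from 1.66 to 1.05. Tsc22d3 was level at 2.27 to 2.30 in the 4 shallower groups and 1.86 (1.69 to 2.04) in the deepest. Sgk1 lay at 8.10 and 8.40 in the shallowest groups and at 6.92 and 6.95 in the deepest ones.

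Among the members, Txnip varied most from cell to cell. The variance of its level beyond Poisson counting, relative to the squared mean, was 1.49, at the 97.4th percentile of 5945 genes detected in at least 5% of cells, where the median gene had 0.131. From depth alone 35.1 cells would have 3 or more Txnip UMIs, and 84 did; 1300.7 would have none, and 1456 did. The 10% of cells with the most Txnip held 57.6% of its UMIs.

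Tsc22d3 came next at 0.642 (89.1st percentile), with 141 cells at 3 or more UMIs against 105.57 from depth. Klf9 had 0.404, Sgk1 0.273, Nr3c1 0.223 and Fkbp5 0.184. Per1 had -0.0199, which is no more variation than counting gives. The variation was thus uneven across the members, wide for Txnip and at or near the counting level for Per1.

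Joint variation was measured as the correlation across the 2055 cells of each pair's residuals, the difference between the UMIs counted and those expected from the total UMIs of the cell, divided by the expected spread. All points come from 1 library, and values under 0.1 in these sparse counts are read as no finding. Of the 21 pairs among the 7 members detected in at least 5% of cells, 2 reached 0.1. These were Txnip with Tsc22d3, at 0.154, and Txnip with Sgk1, at 0.107.

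UMIs of both Txnip and Tsc22d3 were present in 338 cells (16.4%), against 298.29 from depth. An estimate of the correlation of the underlying levels, with counting noise taken out, was 0.394 for this pair and 0.275 for Txnip with Sgk1. It did not set these pairs apart. Fkbp5 with Klf9 had the highest estimate, 0.465, at a residual correlation of 0.00960, and Sgk1 with Nr3c1 had 0.321. The estimate is therefore read as no finding for any pair. The residual correlation of Txnip with Tsc22d3 was 0.124 in the shallower and 0.188 in the deeper cells of the library, and that of Txnip with Sgk1 was 0.0651 and 0.147. In the 1027 cells between the quartiles of total UMIs, Txnip with Sgk1 had 0.0866, under 0.1. Tsc22d3 with Sgk1 stood at 0.0801. The other 18 pairs, including every pair with the receptor gene Nr3c1, lay between -0.0150 and 0.0560, with Sgk1 and Nr3c1 the highest of them.

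**Figure D2:**
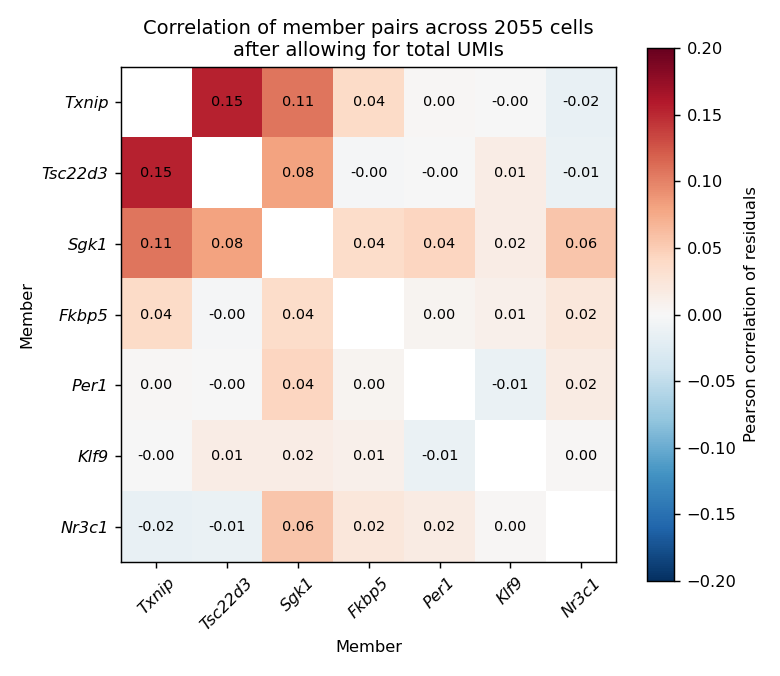
Pearson correlation of residuals across 2055 cells for each pair of 7 members, colour scale from -0.2 to 0.2. The pairs at the upper left are the highest, at 0.154 for Txnip and Tsc22d3, 0.107 for Txnip and Sgk1 and 0.0801 for Tsc22d3 and Sgk1, and the remaining pairs lie near 0.

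Set against all 5944 other genes, 16 (0.269%) had a residual correlation with Txnip of at least 0.1, and 2 of the 6 other members were among them. Tsc22d3 ranked 3rd and Sgk1 13th. At or under -0.1 were 14 genes (0.236%) and none of the members (0 of 6). For Tsc22d3 these shares were 0.0673% and 0.0841%, with Txnip, ranked 2nd, as the 1 member at or over 0.1 and 0 members at the other end. For Sgk1 they were 0.168% and 0.118%, with Txnip, ranked 7th, as the 1 member at or over 0.1 and 0 members under -0.1. The pair pattern was among the values used to choose the genes, so nothing is read from these counts.

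The genes most like Txnip were Clec2d, a C-type lectin-like gene, at 0.195, Abcg1, the cholesterol exporter of AMs, at 0.176, Tsc22d3, Cdc42ep3, an effector of the small GTPase Cdc42, at 0.141, and Pfkfb4, a regulator of glycolysis, at 0.135. The order of the leading pair was not stable, since Abcg1 exceeded Clec2d in cells with at most 5% mitochondrial UMIs (0.187 against 0.180), between the quartiles of total UMIs (0.183 against 0.137) and without cells carrying markers of other types (0.172 against 0.161). The last setting left out 814 cells with 2 or more UMIs of another type's markers and kept 1241. Epcam, in 58.1% of cells, and Fcgr4, in 31.7%, gave most UMIs of their lists, so it is not a removal of a few foreign cells. At the other end were Hilpda, a lipid droplet protein induced by hypoxia, at -0.190, Cdkn1a, the cell cycle inhibitor p21, at -0.163, and the metallothionein Mt1, which binds zinc and copper, at -0.150.

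Tsc22d3 shared several of these genes. Its highest values were with Rbm39, a splicing factor, at 0.167, Txnip, Clec2d at 0.125, lysozyme Lyz2 at 0.102 and Cdc42ep3 at 0.0917, and its lowest with Hilpda at -0.164, Mt1 at -0.134 and Cd14, the lipopolysaccharide co-receptor, at -0.130. Because Txnip and Tsc22d3 were themselves correlated, their lists are not independent.

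Sgk1 shared Abcg1 with Txnip and otherwise had other genes among its leading 5. Its residuals were most like those of the immediate-early gene Fos, at 0.171, Abcg1 at 0.170, the phosphatase Dusp1 at 0.155, the mannose receptor Mrc1 at 0.141 and the adhesion receptor Cd44 at 0.124. Fos, Abcg1 and Dusp1 changed places between settings, with Abcg1 over Fos in cells with at most 5% mitochondrial UMIs (0.177 against 0.162) and Dusp1 over both between the quartiles of total UMIs (0.183, against 0.146 for Abcg1 and 0.143 for Fos). The residuals of Sgk1 were least like those of Rpl32, a ribosomal protein, at -0.130, the histone variant H2afz at -0.119 and the cyclophilin Ppia at -0.114.

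The other members had no clear partners. The highest value was 0.0826 for Fkbp5 (with Nrp1), 0.0926 for Klf9 (with Guca1a) and 0.0954 for Nr3c1 (with Creb1). Per1 had 0.102 with Plcb2, found in 8.81% of cells, and then 0.0812 with Cry1, its partner in the clock repressor complex, found in 7.79%.

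The 2055 cells fell into 1456 without Txnip, 373 with 1 UMI, 142 with 2 and 84 with 3 or more. Tsc22d3 had 1.88 UMIs per 10000 (1.76 to 2.01) in cells without Txnip, 2.49 (2.24 to 2.76) with 1 UMI, 2.53 (2.12 to 2.98) with 2, and 3.98 (3.33 to 4.72) with 3 or more. The ends differed 2.12-fold and the middle classes did not separate. Clec2d went from 0.278 (0.233 to 0.328) to 1.11 (0.780 to 1.53) between the same ends, which is 3.99-fold.

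Sgk1 went from 6.92 (6.69 to 7.16) to 9.58 (8.56 to 10.7) and Abcg1 from 10.8 (10.5 to 11.1) to 15.5 (14.2 to 16.9), both under 1.5-fold. Mt1 took the opposite course, 35.3, 30.7, 24.7 and 21.1 per 10000, 1.67-fold from end to end, and Mt2 fell from 7.68 to 3.47. Hilpda went from 7.93 (7.69 to 8.19) down to 3.74 (3.11 to 4.46) and Cdkn1a from 8.11 (7.86 to 8.37) down to 5.03 (4.30 to 5.85). Fkbp5, Nr3c1, Klf9 and Per1 had overlapping intervals in all 4 classes.

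**Figure D3:**
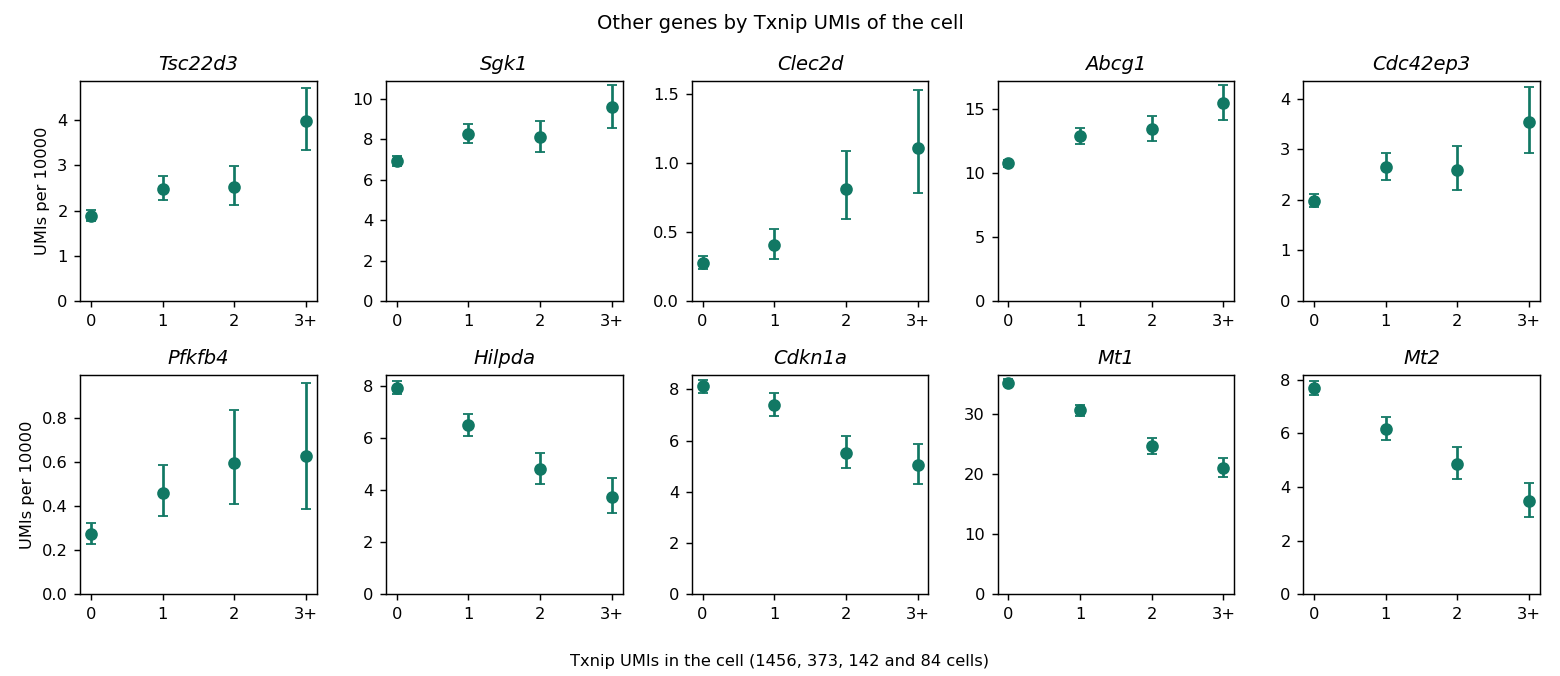
UMIs per 10000 of 10 genes in cells with 0, 1, 2 and 3 or more Txnip UMIs, with exact Poisson 95% intervals; each panel has its own axis from 0. Tsc22d3, Sgk1, Clec2d, Abcg1, Cdc42ep3 and Pfkfb4 are higher, and Hilpda, Cdkn1a, Mt1 and Mt2 lower, in cells with 3 or more Txnip UMIs than in cells with none.

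Depth and other measures moved with these classes. Median UMIs per cell were 3129, 3598, 3637 and 3850, and median mitochondrial shares 3.14%, 3.25%, 3.31% and 3.76%. The summed level of the 8 listed epithelial markers was 3.42 (3.26 to 3.59), 3.81, 3.48 and 4.31 (3.63 to 5.07) per 10000, and most of that sum was Epcam, found in 58.1% of cells. The 7 listed markers of other macrophages and monocytes summed to 1.34, 1.32, 1.52 and 1.77 per 10000 with overlapping intervals, mostly from Fcgr4. Their part in the result was not tested.

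Cells with 2 or more UMIs of both Txnip and Tsc22d3 numbered 69 (3.36%), with a median of 4099 UMIs and a mitochondrial share of 3.80%. Their Sgk1 level was 7.92 per 10000, against 6.81 in the 855 cells that had neither gene. Fkbp5 was at 0.990 and Nr3c1 at 0.990 in the former, and at 1.32 and 1.01 in the latter.

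Txnip and Tsc22d3 were highest in the cells with the least metallothionein. In 5 equal groups of 411 cells, ordered by Mt1 and Mt2 from 12.3 up to 87.6 UMIs per 10000, Txnip was at 2.77 (2.49 to 3.08), 1.39 (1.21 to 1.59), 1.16 (0.994 to 1.34), 0.810 (0.673 to 0.967) and 0.811 (0.669 to 0.975). The lowest metallothionein group thus had 3.42 times as much Txnip as the highest, and most of the step lay between the lowest group and the next.

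Tsc22d3 declined more evenly, from 3.21 (2.91 to 3.54) through 2.57, 1.95 and 1.65 to 1.47 (1.27 to 1.68), or 2.19-fold. Sgk1 stayed within 6.66 to 8.23 and was back at 7.54 in the highest group. Fkbp5 (1.12 to 1.39), Per1 (0.340 to 0.478), Klf9 (0.455 to 0.657) and Nr3c1 (0.911 to 1.14) showed no steady order. Metallothioneins are themselves classic targets of the glucocorticoid receptor and of zinc. The mitochondrial share had a median of 3.54% in the lowest group and 3.13% in the highest, and total UMIs a median of 2864 and 3199; their part in the result was not tested.

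**Figure D4:**
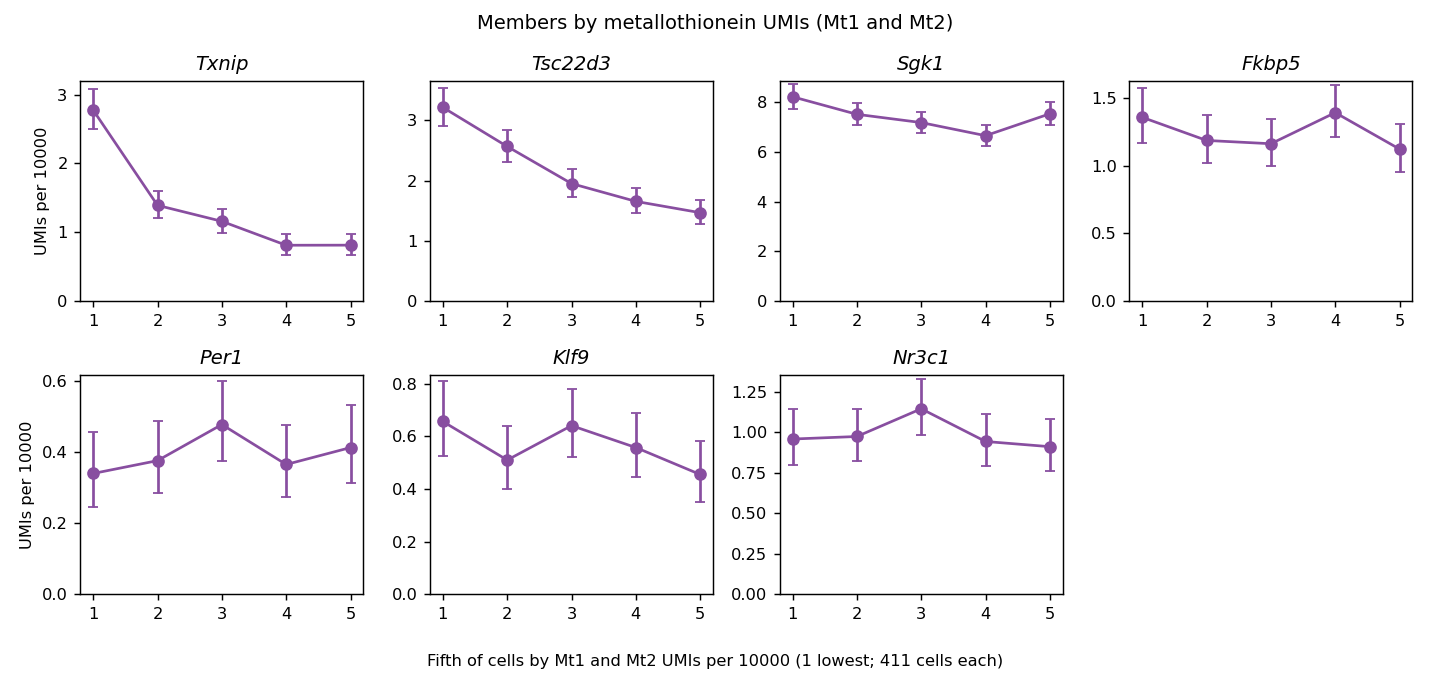
UMIs per 10000 of 7 members in 5 equal groups of 411 cells ordered by the summed level of Mt1 and Mt2, with exact Poisson 95% intervals and axes from 0. Txnip drops from 2.77 to 0.811 and Tsc22d3 from 3.21 to 1.47, whereas the intervals of Fkbp5, Per1, Klf9 and Nr3c1 overlap from group to group.

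In the 206 cells with the highest Mt1 and Mt2, Txnip was at 0.709 per 10000 (0.525 to 0.938) against 1.42 (1.33 to 1.52) in the other 1849 cells, and Tsc22d3 at 1.38 (1.11 to 1.68) against 2.23 (2.12 to 2.35). These 2 of the 7 members were at least 1.5-fold lower there, and 144 of 4299 genes with enough UMIs (3.35%) were. Mt1 was already among the genes least like Txnip and Tsc22d3 in these same cells. The count therefore restates that relation, and nothing further is read from it. None of the 7 was at least 1.5-fold higher (0 of 7, against 1.44% of genes). Within the 5 groups by metallothionein level, the residual correlation of Txnip with Tsc22d3 was 0.159, 0.0962, 0.102, 0.0730 and 0.0450 from the lowest to the highest, and that of Txnip with Sgk1 lay between 0.0219 and 0.148 without order.

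Txnip and Tsc22d3 were somewhat higher in the cells with the highest mitochondrial share, and cell-by-cell correlations with that share were weak. Residual correlations with it ran from -0.0150 for Klf9 to 0.0380 for Txnip, with Tsc22d3 at 0.0334, all near 0 and read as no finding. They depended on the cells kept. Txnip had 0.0758 and Tsc22d3 0.0793 in cells with at most 5% mitochondrial UMIs, where Per1, Sgk1 and Nr3c1 went below 0. Between the quartiles of total UMIs Txnip had 0.0830 and Tsc22d3 0.0863, still under 0.1. In 5 equal groups of cells by mitochondrial share, Txnip was at 1.12 (0.953 to 1.32), 1.18, 1.26, 1.66 and 1.57 (1.36 to 1.80) per 10000, and Tsc22d3 at 1.81 (1.59 to 2.05), 1.97, 1.99, 2.59 and 2.39 (2.12 to 2.68). By counting error alone the intervals of the end groups separated for both genes. Both genes varied between cells beyond counting, which these intervals leave out. The relation was also among the values used to choose the genes, so nothing is read from the separation. The difference between the end groups was 1.39-fold for Txnip and 1.32-fold for Tsc22d3. With mitochondrial UMIs left out of the total it was 1.47-fold and 1.40-fold.

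Sgk1 was 1.08-fold, Per1 1.17-fold, Klf9 1.10-fold, Nr3c1 0.973-fold and Fkbp5 0.931-fold between the same ends. None of the 7 members was 1.5-fold higher or lower (0 of 7 each way), a size that 5.66% of 5371 genes reached upwards and 3.3% downwards. The group with the highest mitochondrial share was also the shallowest, with a median of 2679 UMIs per cell, and the part of depth was not tested.

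**Figure D5:**
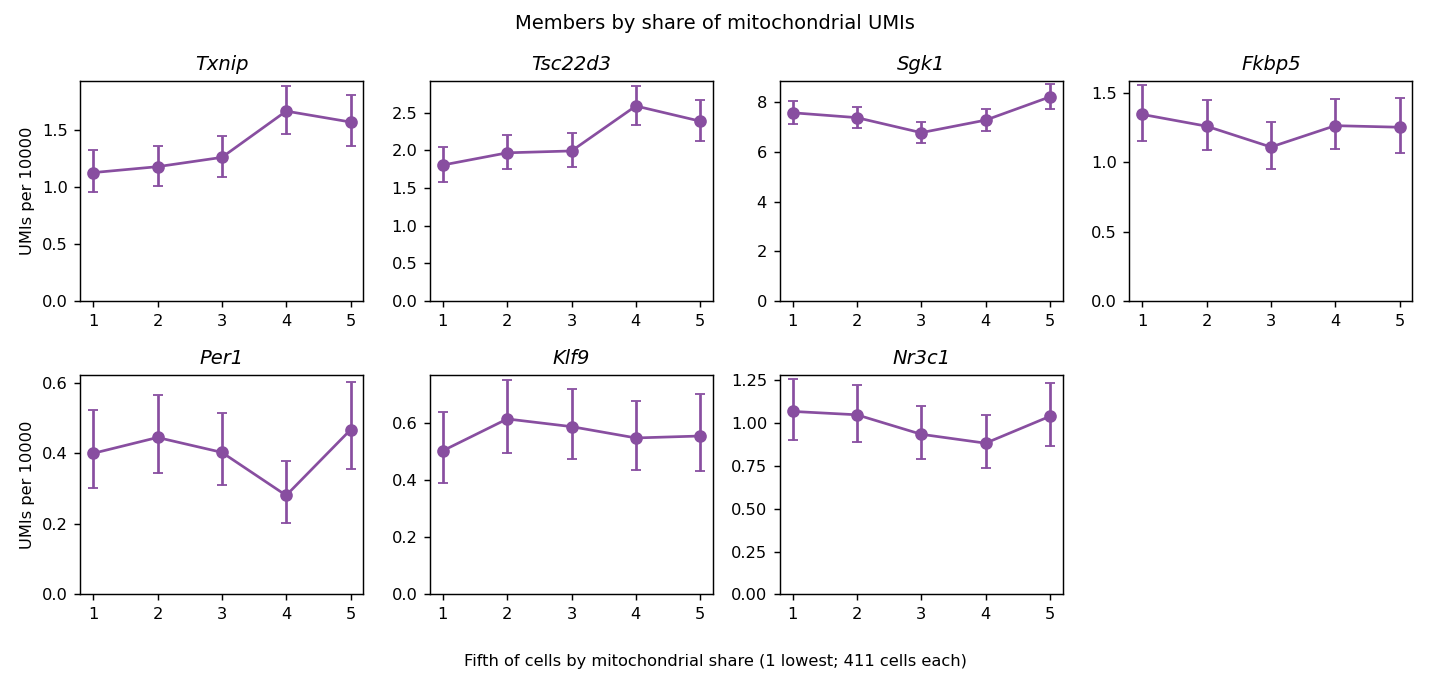
UMIs per 10000 of 7 members in 5 equal groups of 411 cells ordered by the share of mitochondrial UMIs, with exact Poisson 95% intervals and axes from 0. Txnip goes from 1.12 to 1.57 and Tsc22d3 from 1.81 to 2.39, and no member differs 1.5-fold between the lowest and the highest group.

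Most genes of a list of other glucocorticoid-induced genes had a residual correlation with Txnip below 0, and none reached 0.1. Of the 27 genes listed, 22 had values and 17 were detected in at least 5% of cells. With Txnip, 0 of the 17 reached 0.1 (0.269% of all genes did), 4 (Cdkn1a, Mt1, Mt2 and, at -0.103, Thbd, which encodes thrombomodulin) lay at or under -0.1, as did 0.236% of all genes, and the median was -0.0214 against 0.000286 over all genes. With Tsc22d3, 0 reached 0.1 and 3 lay at or under -0.1 (Cdkn1a, Mt1 and Mt2), against 0.0673% and 0.0841% of all genes. Above 0 were 4 of the 17 with Txnip and 4 with Tsc22d3, where 50.3% and 50.2% of all genes were. With Sgk1, 12 of the 17 were above 0, as were 55.2% of all genes, and 1, Dusp1, was above 0.1, as were 0.168%. Cdkn1a and Mt1 were already named above among the genes least like Txnip, and Mt1 among those least like Tsc22d3, so the list counts them again. The shares over all genes are not matched on level. Many genes of the list are also induced by other signals.

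Genes of receptor partners ranged from widely detected to rare. Of 14 chaperone, corepressor and steroid-handling genes, 12 were detected in at least 5% of cells, Hspa8 and Hsp90ab1 at 16.1 and 9.78 UMIs per 10000. Hsd11b1, which regenerates active glucocorticoid, was found in 5.50% of cells, and Nr3c2, the mineralocorticoid receptor, in 0.438%. None of the 12 reached 0.1 in either direction with Txnip, Tsc22d3 or Sgk1. In the 206 cells highest in this list, Sgk1 was at 8.39 per 10000 (7.70 to 9.13) against 7.31 (7.10 to 7.52) in the others, while the intervals of the other members overlapped.

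In the thioredoxin pathway, 12 of 19 listed names were detected in at least 5% of cells and none reached 0.1 with Txnip in either direction. The highest was the Txnip paralogue Arrdc4 at 0.0561, and the lowest were thioredoxin reductase Txnrd1 at -0.0687 and thioredoxin Txn1 at -0.0604. In the 206 cells highest in this list, whose sum is mostly Txn1, Txnip was at 0.921 per 10000 (0.711 to 1.17) against 1.40 elsewhere.

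Sgk1 was higher and Txnip lower in the cells highest in immediate-early genes. Of 15 tested, 15 had a residual correlation above 0 with Sgk1, where 55.2% of all genes did, with a median of 0.0431 and Fos as the only one over 0.1. With Txnip, 3 of the 15 were above 0, the median was -0.0396, and Nr4a1, an orphan nuclear receptor, was lowest at -0.128. In the 206 cells highest in this list, Sgk1 was at 8.87 per 10000 (8.19 to 9.60) against 7.25 (7.04 to 7.46) elsewhere, and Txnip at 1.01 (0.787 to 1.28) against 1.39 (1.30 to 1.49).

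The Txnip level was lower in the cells highest in chemokine or cell cycle genes. In the 206 cells highest in the chemokine list, Txnip was at 0.967 per 10000 (0.762 to 1.21) against 1.40, and in the 206 highest in the cell cycle list at 0.955 (0.757 to 1.19) against 1.41 in the other cells. Sgk1 was at 5.84 (5.33 to 6.38) in the cell cycle group against 7.61 (7.40 to 7.82), and these cells were deeper, with a median of 3933.5 UMIs against 3233. The cells highest in the chemokine list were deeper too, with a median of 3611.5 UMIs against 3245. The part of depth was not tested in either group. Gene by gene, residual correlations with Txnip were under 0.1 in size, above 0 for 0 of 8 chemokine and cytokine genes (lowest -0.0765, Il1b) and 0 of 10 cell cycle genes, where 50.3% of all genes were above 0.

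For Fkbp5, the lists gave 1 separation of the intervals. It was at 0.887 per 10000 (0.689 to 1.13) in the 206 cells highest in MHC class II genes against 1.29 (1.20 to 1.38) in the others. Nr3c1 was at 0.708 (0.526 to 0.934) against 1.02 (0.943 to 1.10) in the thioredoxin list's highest cells. Klf9 and Per1 had overlapping intervals for every list. Txnip was at 1.94 (1.62 to 2.30) against 1.29 (1.21 to 1.38) in the cells highest in AM markers, whose median mitochondrial share was 3.93% against 3.14%; its part was not tested. Txnip and Sgk1 were also higher in the 206 cells highest in epithelial markers, at 1.75 (1.44 to 2.11) against 1.32 (1.23 to 1.41) and at 8.39 (7.69 to 9.12) against 7.31 (7.10 to 7.52), with a median mitochondrial share of 3.64% against 3.17%. The Txnip intervals nearly met here and leave out its variation between cells beyond counting.

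The clock genes were sparse. Of 17, 8 were detected in at least 5% of cells, and apart from Cry1 none had a residual correlation with Per1 beyond 0.05 in either direction. Of 9 detected mTORC1 and FoxO linked genes and 7 detected Klf family genes, 0 reached 0.1 with Txnip, Tsc22d3 or Sgk1.

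In GRCm38 (GENCODE M21), Txnip spans chr3:96557957-96561883 on the plus strand and overlaps the antisense gene Gm15441. Tsc22d3 lies at chrX:140539528-140600659 (minus), Fkbp5 at chr17:28399094-28517527 (minus), Per1 at chr11:69095217-69109960 (plus), Sgk1 at chr10:21882184-21999903 (plus), Ddit4 at chr10:59949669-59951834 (minus) and Klf9 at chr19:23141226-23168134 (plus). None of the 98-base sequences at the 3′ ends of the members' transcripts (0 for each member) occurred unchanged in a transcript of another gene. Only exact matches were searched, so near copies that differ by a base were not looked for.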

How the data were processed

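Cells of 1 WT library were analysed. The authors aligned reads to mm10 and counted UMIs with Cell Ranger 2.1, and describe limits on genes per cell (also their treatment of doublets), on mitochondrial content and on gene classes; no doublet caller was run here. The authors deposited, from Seurat, natural log values (1 plus UMIs per 10000 of the cell) and a scaled score per gene and cell, centred after regression on depth and mitochondrial content. Whole UMIs were recovered from the log values (100% of 3052476 values above 0 whole within 0.05). Although the methods describe removal of ribosomal protein genes and of cells above 5% mitochondrial content, both are present.

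Levels have exact Poisson and shares exact binomial 95% intervals, covering counting error only. Residuals were analytic Pearson residuals (theta 100, clipped at the square root of the number of cells) with expected UMIs from cell totals. Genes in at least 5% of cells entered correlations; genes with at least 50 UMIs in both end groups entered mitochondrial comparisons, and with at least 200 UMIs metallothionein comparisons. The members, gene lists and the reading limit of 0.1 were chosen with earlier results of these data known. Named genes were the members, for each member that was itself detected in at least 10% of cells the 5 genes with the highest and the 3 with the lowest residual correlation among genes in at least 5% of cells, and up to 4 per list; Mt2, Fcgr4, Epcam, Jchain and S100a8 were named after their values were seen. Alternatives changed the scale, theta, depth, the cells kept, the minimums and the fold. Steps were tested on simulated data. Python 3.11.15, numpy 2.4.6 and scipy 1.17.1 were used. No test was run, since 1 library has no replicate.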

Additional observations from a re-analysis of the deposited data

How the results depend on the processing

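No paired analysis was possible because there was 1 library, and no replicate could be left out. Changes of sign were limited to correlations whose main value was under 0.05 in size and to the folds of Per1 and Nr3c1 between the end groups by mitochondrial share, all read as no finding. With rank correlation some of these pairs went past 0.1, Per1 with Klf9 from -0.0136 to 0.405. With 2000 UMIs drawn per cell, Txnip was detected in 20.8% and Tsc22d3 in 32.5% of cells, since fewer molecules were drawn. Of the 21 pairs, 16 reached 0.1 with rank correlation and 1 in the 1027 cells between the quartiles of total UMIs. Ranks of residuals carry depth by construction, because cells at 0 are ordered by their total; by rank Txnip had 0.0906 and Tsc22d3 0.0888 with the mitochondrial share, and between the quartiles of depth Tsc22d3 had 0.0863. Genes at least 1.5-fold higher between the end groups by mitochondrial share were 9.34% with a minimum of 20 UMIs and 1.36% with 200, and 0.428% were 2-fold higher; lower were 5.73%, 1.67% and 0.521%. With a detection minimum of 20% of cells, 3 of the 5 genes most like Txnip were retained. Txnip with Tsc22d3 lay between 0.112 and 0.197 over all settings. In alternatives chosen after seeing the data, the ratio of Txnip in the cells highest in metallothioneins to the others was 0.465 to 0.620, and that of Tsc22d3 0.631 to 0.690. Depth limits the rare members most, since Per1 and Klf9 had 286 and 407 UMIs in all.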

Other observations

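Further gene lists were set beside the members as values, without a test. With Txnip, 0 of 7 heat shock genes had a residual correlation above 0 (-0.0558 to -0.00772), where 50.3% of all genes did. With Sgk1, 0 of 6 MHC class II genes were above 0 (-0.0482 to -0.0249), where 55.2% of all genes were. All of these are under 0.1 in size. In the 206 cells highest in the nuclear RNAs Malat1 and Neat1, Sgk1 was at 8.67 UMIs per 10000 (7.87 to 9.52) against 7.31 (7.11 to 7.52) in the others. Those cells had a median of 2145.5 UMIs and a mitochondrial share of 7.07%, against 3403 UMIs and 3.11%, and the part of either in the Sgk1 level was not tested.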
